A study of Homo sapiens with 4 samples.

Results

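The genes examined here are 10 core components of the transforming growth factor-β (TGF-β) pathway, chosen by name and role from 19962 protein-coding genes. They comprise 3 ligands (TGFB1, TGFB2 and TGFB3), 2 receptors (TGFBR1 and TGFBR2), 2 signal-carrying SMADs (SMAD2 and SMAD3) and 3 negative regulators (SMAD7, SMURF2 and SKIL). To describe the regulatory landscape around them, peaks of acetylated lysine 27 of histone H3 (H3K27ac), a mark of active promoters and enhancers, were read from 4 chromatin immunoprecipitation sequencing (ChIP-seq) libraries. MDA-MB-231 and Hs578T are established triple-negative breast cancer cell lines, and there were 2 libraries per line. Per the labels, all 4 libraries came from serum-starved cells that were given 10 ng/ml of TWEAK, the ligand of the receptor Fn14, for 48 h and were then kept in its absence for 72 h, while the text of the study states a longer wash-off. Every library therefore shares that treatment. Cells without TWEAK, or still exposed to it, were not analysed here, and these data thus give no effect of the cytokine on the 10 genes.

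TGF-β ligands are secreted in a latent form and, once released, bind the type II receptor TGFBR2, which recruits and phosphorylates the type I receptor TGFBR1. The activated type I receptor phosphorylates SMAD2 and SMAD3, which join SMAD4, enter the nucleus and act on target genes together with other factors, among them AP-1. SMAD7 and SKIL are themselves induced by the pathway and restrain it, and SMURF2 is a ubiquitin ligase that acts with SMAD7 on the receptors. In breast carcinoma cells the pathway is known for its part in epithelial-mesenchymal transition and invasion.

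The list labelled MDA-MB-231 replicate 1 stood apart, with 209 peaks covering 0.113 Mb, whereas the other 3 held 43353 to 46330 peaks covering 81.8 to 90.7 Mb. It had no peak at any of the 10 loci and marked 12 protein-coding promoters, or 0.0601%, so MDA-MB-231 is in effect represented by its replicate 2 alone, and values below refer to the 3 longer lists unless stated. In those 3 lists a promoter peak was present at 6 of 6 mesenchymal or basal markers, at 4 of 4 housekeeping genes and at 2 of 6 luminal markers (ERBB3 and KRT19), and at none of ESR1, GATA3, FOXA1 and PGR. With 2 lists per line the smallest p that an exact permutation test (two-sided) allows is 0.333, so differences between the lines are given as values with no test.

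Sequences are shown for the promoters and peaks on which the description below turns. The first set holds the 250 bases upstream of the start site of 3 genes, 5′ to 3′ on the strand of the gene, from RefSeq promoter sequences (GRCh38.p14), which held all 10 genes. TGFB2 and TGFB3 are shown because they were the only 2 of the 10 with the TATA box letters TATAAA in this stretch, given in capitals. These letters are present in 6.84% of 34788 RefSeq stretches of the same length and position. SMAD7 is shown because its stretch lay inside a peak in MDA-MB-231 replicate 2 but in neither Hs578T list.
TGFB2, chr1:218345086-218345335, plus strand: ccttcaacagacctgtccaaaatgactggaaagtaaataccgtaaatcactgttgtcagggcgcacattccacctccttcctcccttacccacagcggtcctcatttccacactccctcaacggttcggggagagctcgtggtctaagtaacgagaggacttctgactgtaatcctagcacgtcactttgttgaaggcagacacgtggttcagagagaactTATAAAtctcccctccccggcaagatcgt
TGFB3, chr14:75981996-75982245, minus strand: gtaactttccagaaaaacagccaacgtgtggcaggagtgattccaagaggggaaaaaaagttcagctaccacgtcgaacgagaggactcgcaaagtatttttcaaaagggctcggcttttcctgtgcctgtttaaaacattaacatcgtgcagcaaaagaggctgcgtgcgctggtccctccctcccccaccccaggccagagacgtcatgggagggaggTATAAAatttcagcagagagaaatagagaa
SMAD7, chr18:48950966-48951215, minus strand: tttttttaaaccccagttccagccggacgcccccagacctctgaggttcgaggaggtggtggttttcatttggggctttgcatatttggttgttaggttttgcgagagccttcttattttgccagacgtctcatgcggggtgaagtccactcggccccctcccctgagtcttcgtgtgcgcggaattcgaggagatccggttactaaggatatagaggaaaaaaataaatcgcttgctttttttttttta

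The second set shows the SMAD palindrome GTCTAGAC, in capitals within 100 bases of hg38 on the strand of the gene, at 3 places that lay inside a peak in all 3 longer lists.
TGFB2, intron, chr1:218375074-218375173, plus strand: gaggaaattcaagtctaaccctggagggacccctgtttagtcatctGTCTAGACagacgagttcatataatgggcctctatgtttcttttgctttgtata
TGFBR2, intron, chr3:30655856-30655955, plus strand: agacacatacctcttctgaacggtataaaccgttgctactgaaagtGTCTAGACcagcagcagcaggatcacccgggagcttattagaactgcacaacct
SMAD7, upstream of the start site, chr18:48952172-48952271, minus strand: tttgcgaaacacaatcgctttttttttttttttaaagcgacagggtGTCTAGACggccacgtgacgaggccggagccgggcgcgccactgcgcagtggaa
For SKIL, 30 bases are shown around the cyclic AMP response element TGACGTCA, in capitals, whose first base lies 54 bp upstream of the start site and which 1.64% of the RefSeq stretches hold.
SKIL, chr3:170357650-170357679, plus strand: cgaggactcggTGACGTCAgagggctgtgt
For SMURF2, 120 bases of a peak 32.1 kb upstream of the start site are shown on the plus strand, with matches to the AP-1 motif (TGACTCA or TGAGTCA, each the reverse complement of the other) in capitals.
SMURF2, upstream, chr17:64694342-64694461: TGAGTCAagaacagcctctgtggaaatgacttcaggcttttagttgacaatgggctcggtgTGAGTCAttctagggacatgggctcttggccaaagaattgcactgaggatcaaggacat

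To find which of the genes carried H3K27ac at the promoter, peaks were sought within 1 kb of the start site of the Ensembl canonical transcript. All 10 genes had a peak there in each of the 3 longer lists, where 58.1% of all protein-coding genes had one in MDA-MB-231 replicate 2, 58.2% in Hs578T replicate 1, 56.4% in Hs578T replicate 2 and 55.6% in all 3 lists. In MDA-MB-231 replicate 1 no gene of the 10 was marked, so the mean number was 5.0 ± 7.07 (SD, n = 2) in MDA-MB-231 and 10 ± 0.0 (SD, n = 2) in Hs578T. The genes differed mainly in the width of the peak. Promoter peaks of at least 5 kb were found at TGFB2, TGFBR2, SMAD3 and SMURF2 in every one of the 3 lists, that is at 4 of 10 genes, against 7.93% of marked protein-coding genes in MDA-MB-231 replicate 2, 9.46% in Hs578T replicate 1 and 7.66% in Hs578T replicate 2. The other 6 had promoter peaks of 865 to 2755 bp, against medians over all marked genes of 1792, 1897 and 1804 bp in the 3 lists.

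Values for the 3 longer lists are given throughout in the order MDA-MB-231 replicate 2, Hs578T replicate 1 and Hs578T replicate 2. Fold enrichment is the peak caller's ratio of signal over local background. The settings of the caller are not stated, and the columns of the lists have the form of its broad peak output, in which nearby enriched stretches are joined and the fold enrichment is a mean over the whole region. If so, a wide peak can hold several stretches, and its fold enrichment is not that of its summit. Fold enrichment also moves with sequencing depth and input, which are not known here, so it was compared between genes of a list and not between lists.

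**Figure D1:**
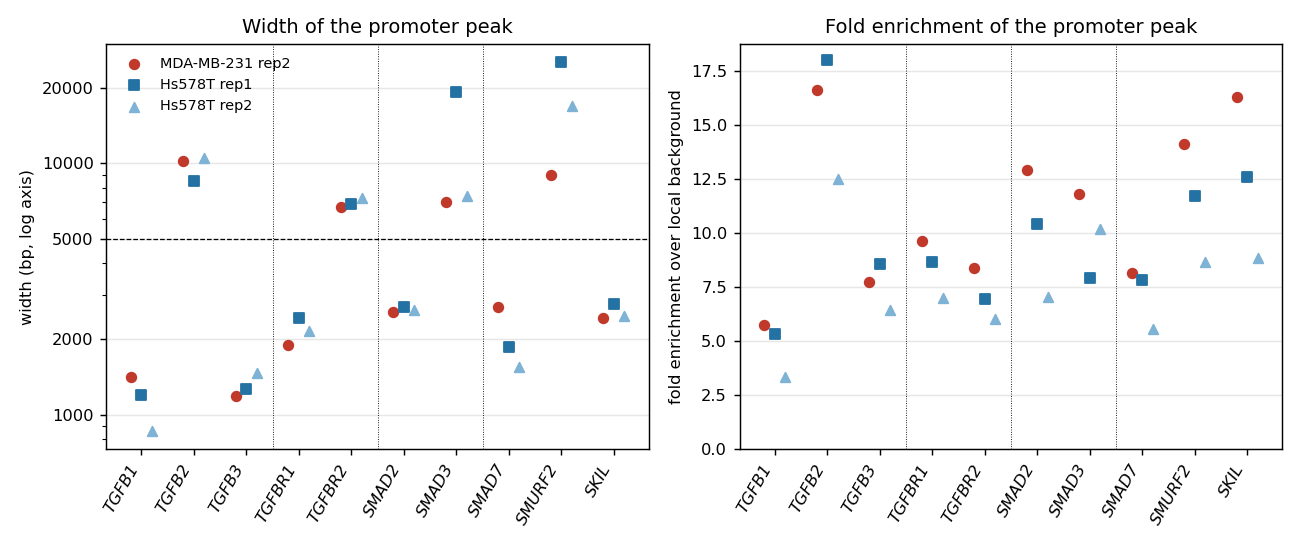
Width in bp (left, log axis) and fold enrichment over local background (right, linear axis from 0) of the promoter peak of each gene, with 1 point per list and dotted lines between ligands, receptors, SMADs and negative regulators. TGFB2, TGFBR2, SMAD3 and SMURF2 lie above the dashed line at 5 kb in all 3 lists, and TGFB1 has the lowest fold enrichment in each list.

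Among the ligands, TGFB2 and TGFB1 were at opposite ends. The TGFB2 promoter peak was 10232, 8492 and 10537 bp wide, with a fold enrichment of 16.6, 18.0 and 12.5, the highest of the 10 genes in each of the 3 lists. It began 1327 to 1583 bp upstream of the start site and thus ran mostly into the gene. The peak of TGFB1, a ligand expressed in most tissues, was 1412, 1198 and 865 bp wide with a fold enrichment of 5.76, 5.32 and 3.33, the lowest of the 10 in each list. TGFB3, a ligand known for its role in palate closure, had a narrow peak of 1194, 1273 and 1467 bp with a fold enrichment of 7.74, 8.54 and 6.45. Medians of fold enrichment over all promoter peaks were 9.18, 8.13 and 6.86, so TGFB1 lay below the median in all 3 lists and TGFB3 above it in Hs578T replicate 1 only.

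The receptors differed from each other in width more than in enrichment. The peak at TGFBR2 was 6687, 6896 and 7308 bp wide, with a fold enrichment of 8.4, 6.95 and 6.04, each below the median of its list. That at TGFBR1 was 1902, 2427 and 2151 bp wide with a fold enrichment of 9.63, 8.67 and 6.98, each just above it. In both genes the peak covered the start site in all 3 lists, and widths in MDA-MB-231 replicate 2 were below those in both Hs578T lists.

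The 2 SMADs that carry the signal also differed. SMAD3, which binds DNA directly, had a promoter peak of 7015, 19127 and 7384 bp with a fold enrichment of 11.8, 7.91 and 10.2. The 19127 bp of Hs578T replicate 1 took in sequence that formed separate peaks in the other lists. There a second peak of 5426 bp in MDA-MB-231 replicate 2 and 9303 bp in Hs578T replicate 2 followed after a short gap. The same stretch held 3 peaks in all in MDA-MB-231 replicate 2 and 2 in Hs578T replicate 2. SMAD2, whose main isoform does not bind DNA directly, had a compact peak of 2572, 2690 and 2616 bp with a fold enrichment of 12.9, 10.4 and 7.03. Its width thus varied little between the lists.

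Of the negative regulators, SMURF2 had the broadest promoter peak in Hs578T, at 25168 and 16897 bp against 9004 bp in the MDA-MB-231 list, with fold enrichments of 14.1, 11.7 and 8.64. With the lists merged, the stretch around this SMURF2 peak was 27193 bp long and held 3, 1 and 3 separate peaks. The widths thus also depend on where neighbouring stretches were joined, and are not a measure of covered bases. SKIL, which encodes the SMAD-binding corepressor SnoN, had a narrow and strong peak of 2434, 2755 and 2464 bp with a fold enrichment of 16.3, 12.6 and 8.85. Its stretch of 250 bases has a GC content of 78.4%, against a median of 58.0% for RefSeq stretches of that kind.

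SMAD7, the inhibitory SMAD, was the only gene of the 10 whose peak did not always reach the start site. The peak was 2688 bp wide and covered the start site in MDA-MB-231 replicate 2, but was 1855 and 1553 bp wide in the Hs578T lists and ended 366 and 531 bp upstream of it. All 250 bases of the SMAD7 stretch printed above were in the peak of MDA-MB-231 replicate 2, and 0 were in that of either Hs578T list. On its upstream side the peak began at similar places, 2194, 2220 and 2083 bp from the start site. Fold enrichment was 8.14, 7.81 and 5.55.

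Base composition of the 250 bases upstream also differed between the genes. GC content ran from 48.0% in SMAD7, 49.2% in TGFB3 and 50.4% in TGFB2 to 82.0% in SMURF2 and 84.4% in SMAD2. The pair with TATAAA thus lay among the 3 lowest, with the first base of the motif 29 bp upstream of the start site in TGFB2 and 30 bp in TGFB3. None of the 10 stretches held an AP-1 match or the SMAD palindrome, which 4.21% and 0.178% of RefSeq stretches held.

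To look beyond the promoters, peaks were collected over each gene and 100 kb on either side, which gave 2.76 Mb in all. These 10 loci held 143, 157 and 156 peaks covering 404889, 508283 and 473014 bp, or 14.7%, 18.4% and 17.1% of their length. The median of the 10 loci was 10.2%, 10.8% and 9.94%, against 3.96%, 4.37% and 4.0% for the median protein-coding locus. Coverage of the 10 loci was far from even. SMURF2 and SMAD3 together held 48.5%, 52.4% and 52.1% of the covered bases, while SMAD2 and SKIL were covered to less than the median locus in each list.

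**Figure D2:**
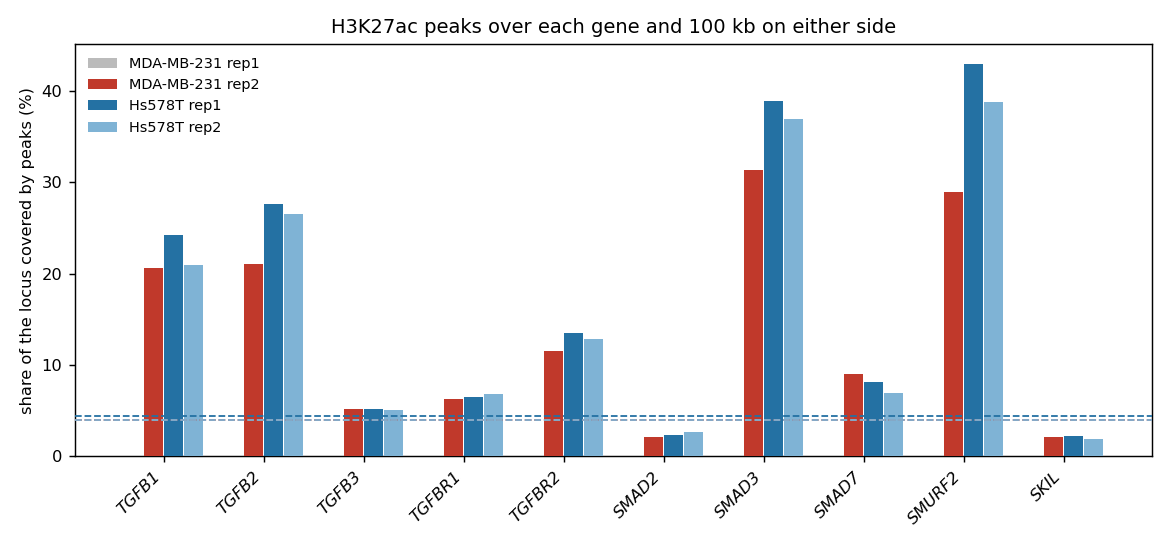
Share of each locus, the gene with 100 kb on either side, that was covered by H3K27ac peaks, in percent, with 1 bar per list; dashed lines mark the median over protein-coding loci in each of the 3 longer lists (the lines of MDA-MB-231 replicate 2 and Hs578T replicate 2 nearly coincide). SMAD3 and SMURF2 reach 28.9% to 43.0%, SMAD2 and SKIL stay at 1.9% to 2.68%, and MDA-MB-231 replicate 1 is at 0 throughout.

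SMAD3 lies at chr15:67063763-67195173 on the plus strand (hg38, GENCODE release 44). Its locus was covered to 31.4%, 38.9% and 36.9%, which was rank 48, 19 and 19 of 19962 protein-coding loci. Within the gene body itself 64.4%, 79.6% and 75.2% of the bases were in peaks. The widest peak was 26549, 39895 and 26452 bp long, with a fold enrichment of 19.4, 18.8 and 16.2. In MDA-MB-231 replicate 2 and Hs578T replicate 2 it was centred 32.5 kb downstream of the start site, and in Hs578T replicate 1 a longer one was centred at 67.6 kb, where the other 2 lists had several separate peaks. The peak with the highest fold enrichment lay upstream of the gene in all 3 lists, 16.1, 19.2 and 16.4 kb from the start site, at 24.4, 20.5 and 25.1. Of 6 basic GENCODE start sites of SMAD3 over 1 kb from the canonical site, 5 had a peak within 1 kb in each list.

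SMURF2 lies at chr17:64542282-64662307 on the minus strand. Its locus was covered to 28.9%, 43.0% and 38.8%, which was rank 84, 9 and 15. The peaks with the highest fold enrichment of all 10 loci lay upstream of this gene. A peak 47.5 to 47.7 kb upstream had a fold enrichment of 37.9, 38.7 and 31.5 and a width of 9588, 10654 and 9873 bp. Another 18.4 to 19 kb upstream reached 33.0, 46 and 34.8. The former was the higher of the pair in MDA-MB-231 replicate 2 and the latter in both Hs578T lists. The sequence printed for SMURF2 came from a weaker peak between them, with a fold enrichment of 11.8, 11.5 and 8.77. Neighbouring genes also contribute to this locus, since 4 of 4 other protein-coding start sites in it (MILR1, POLG2, DDX5 and CEP95) had a promoter peak in all 3 lists, and SMURF2 had the nearest protein-coding start site for 18 of 30, 25 of 43 and 24 of 40 peaks.

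TGFB2 lies at chr1:218345336-218444619 on the plus strand, and was covered over its locus to 21.1%, 27.6% and 26.5%. Peaks were dense in the first part of the gene and again downstream of its end, where the highest fold enrichment at the locus, 29.1, 28.8 and 21.6, was found 152 to 153 kb from the start site. That peak was 5943, 7019 and 9333 bp wide. TGFB2 had the nearest protein-coding start site for 16 of 17, 23 of 24 and 23 of 24 peaks. The locus held 1 other protein-coding start site, that of RRP15 upstream, which was marked in all 3 lists. The stretch upstream of TGFB2 printed above also overlaps exons of the antisense gene TGFB2-AS1, and H3K27ac does not tell the strands apart.

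**Figure D3:**
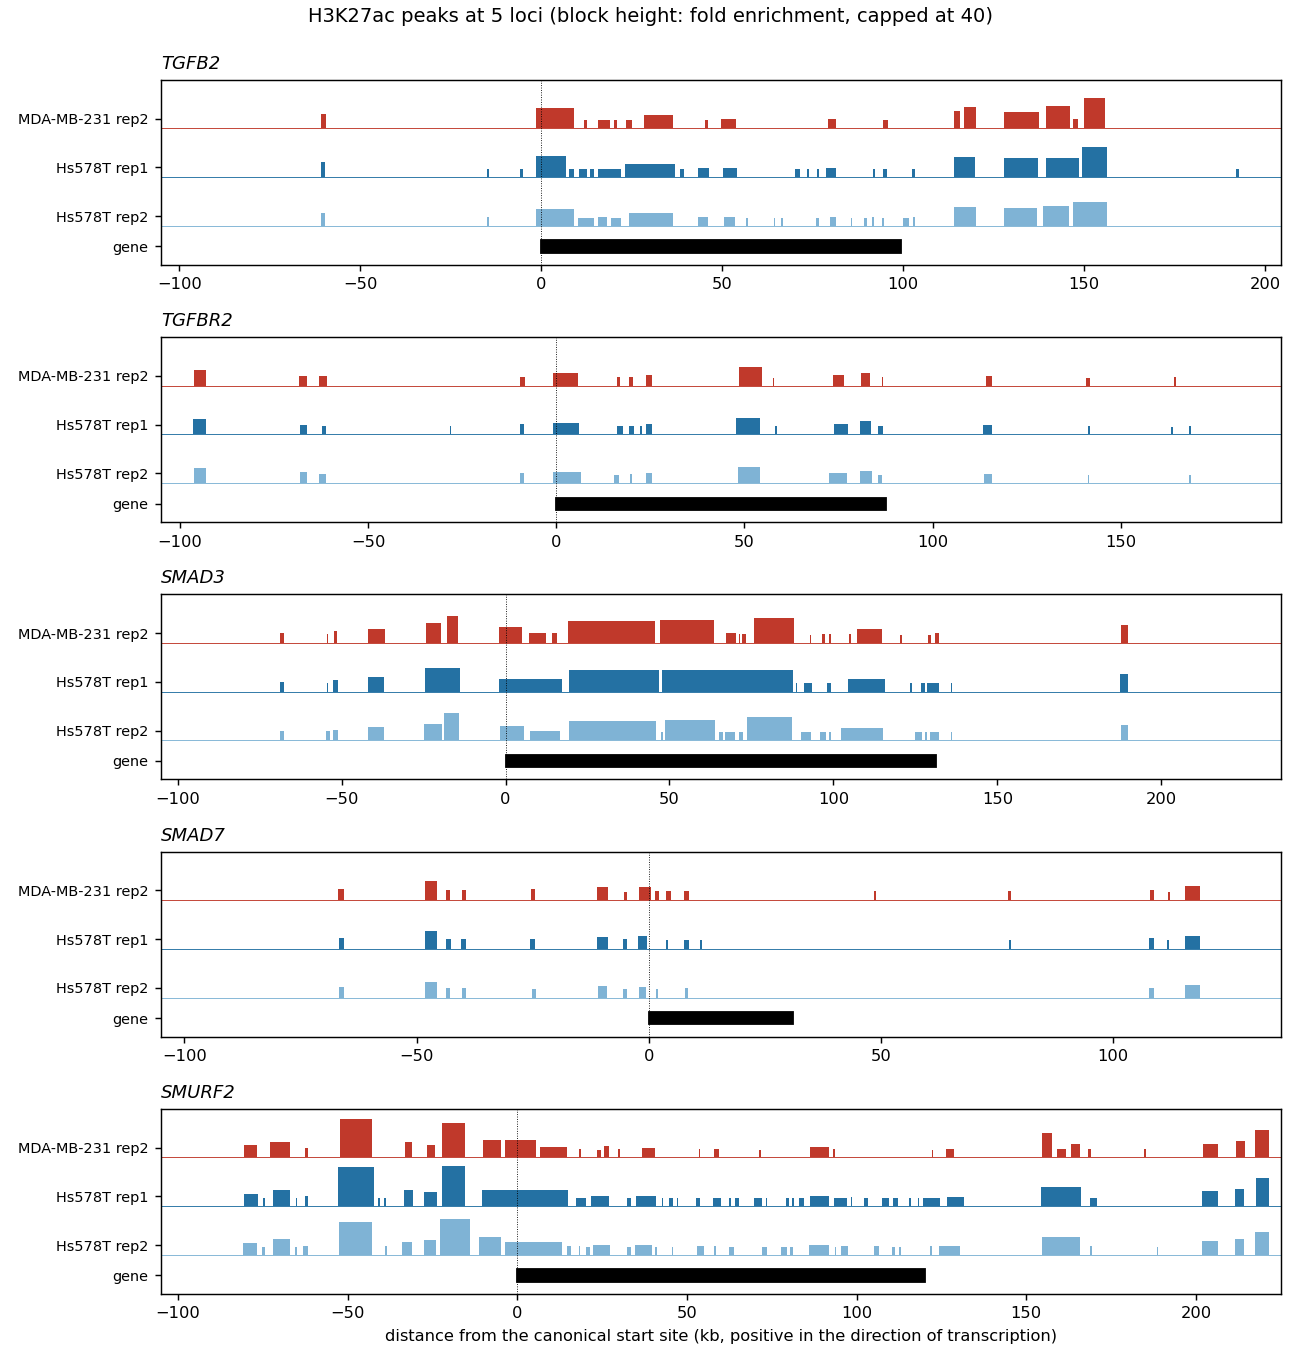
Peaks at the loci of TGFB2, TGFBR2, SMAD3, SMAD7 and SMURF2 in 3 lists, by distance from the canonical start site in kb, positive in the direction of transcription; block length is peak width (drawn at no less than 0.4 kb), block height above the baseline rises with fold enrichment, and the black bar is the gene. SMAD3 is covered over most of its body, SMURF2 has its tallest blocks upstream, and TGFB2 has its tallest block downstream of the gene.

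The TGFB1 locus was also covered broadly, to 20.6%, 24.2% and 20.9%, but little of this belonged to TGFB1 by distance. The gene had the nearest protein-coding start site for 1 of 17, 2 of 18 and 1 of 18 peaks. Of 11 other protein-coding start sites at the locus, 7 were marked in all 3 lists. The widest peak, 18329, 17181 and 17308 bp with a fold enrichment of 29.8, 24.2 and 18.1, was the promoter peak of AXL, a receptor tyrosine kinase of mesenchymal cancer cells whose start site lies 135.0 kb downstream of that of TGFB1. The TGFB3 locus had 6 peaks in each list and was covered to 5.16%, 5.16% and 5.07%. It varied least between the lists, from 11395 to 11610 bp.

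The TGFBR2 locus had 16, 19 and 15 peaks and was covered to 11.5%, 13.5% and 12.9%. Its strongest peak was intronic, 50.9 to 51.6 kb downstream of the start site, and was 6133, 6496 and 5763 bp wide with a fold enrichment of 15.2, 12.5 and 11.6. No other protein-coding start site lies at this locus. TGFBR1 was covered less, to 6.25%, 6.54% and 6.78%. There the strongest peak was the shared promoter peak of ALG2 and SEC61B 117 kb away, whereas the widest, 5455, 5468 and 5766 bp, lay 47.9 to 48.0 kb upstream of TGFBR1.

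The remaining loci were those of SMAD2, SMAD7 and SKIL. At SMAD2 there were 4, 4 and 5 peaks, and the strongest, with a fold enrichment of 18.0, 20.3 and 15.8, lay 73.3 to 73.5 kb upstream and exceeded that at the promoter in each list. At SMAD7 there were 16, 15 and 12 peaks and a coverage of 8.97%, 8.19% and 6.97%. The strongest was 46.9 kb upstream, at 16.1, 13.7 and 11.1. At SKIL the promoter peak was both the widest and the strongest of 5, 4 and 4 peaks, and the start sites of the 2 other protein-coding genes at the locus had no peak.

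To compare the lines, covered bases in MDA-MB-231 replicate 2 were set against both Hs578T lists. For 7 genes (TGFB1, TGFB2, TGFBR1, TGFBR2, SMAD2, SMAD3 and SMURF2) the value in MDA-MB-231 replicate 2 was below both, for SMAD7 it was above both and for TGFB3 and SKIL it lay between them. Of 18164 protein-coding loci with covered bases to compare, 47.7% were below both and 19.1% above both, and the median ratio to the Hs578T mean was 0.952. The Hs578T lists were also longer genome-wide, and the ratio of covered bases over whole lists was 0.937. Summed over the 10 loci, coverage was 404.9 kb in MDA-MB-231 replicate 2 against 490.6 ± 24.94 kb (SD, n = 2) in Hs578T. With the empty replicate 1 included, the MDA-MB-231 mean was 202.4 ± 286.3 kb (SD, n = 2).

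The SMURF2 locus differed most. Covered length there was 92426 bp for MDA-MB-231 replicate 2 but 137462 and 124091 bp for Hs578T, a ratio of 0.707 to the Hs578T mean that was at centile 3.93 of all loci. The difference was largest inside the gene, where peaks covered 49.2% and 39.7% of the body in Hs578T and 25% in MDA-MB-231 replicate 2. TGFB2 followed with 63218 bp against 82542 and 79244 bp, a ratio of 0.782 at centile 9.03. SMAD3 had 103972 bp against 128793 and 122241 bp, a ratio of 0.828 at centile 15.3. At SMAD7 the order was the opposite, with 20727 bp against 18922 and 16117 bp, a ratio of 1.18 at centile 94.3. The other 6 loci had ratios of 0.866 to 1.04. These 6 and SMAD3 lay within the range of all loci from centile 10 to 90, which was 0.791 to 1.12. In each of 7 settings of flank, peak strength, list length and merging, SMAD7 stayed above both Hs578T lists and TGFB2, TGFBR1, TGFBR2, SMAD2, SMAD3 and SMURF2 stayed below both, while TGFB1, TGFB3 and SKIL changed place in some.

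**Figure D4:**
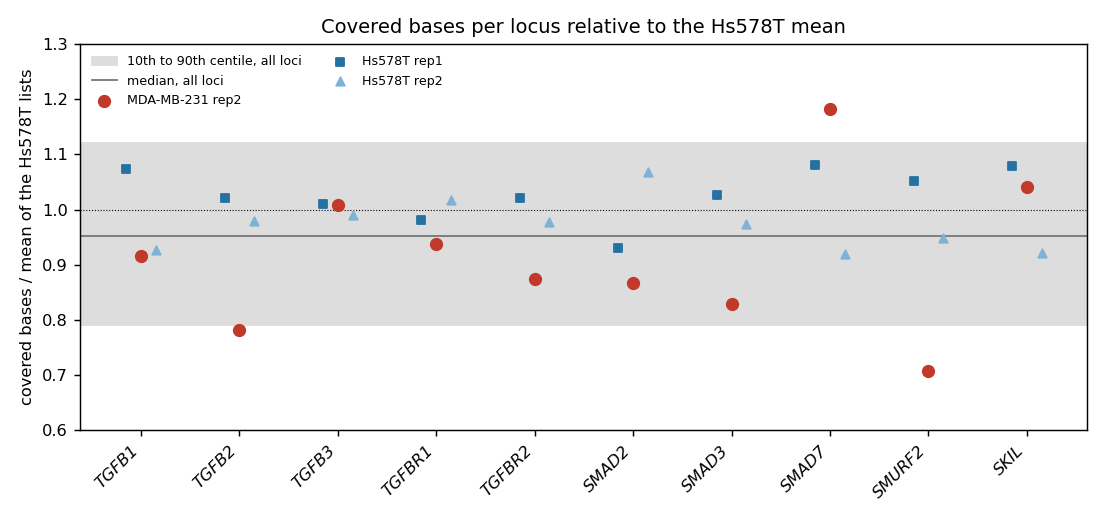
Covered bases at each locus divided by the mean of the Hs578T lists, with 1 point per list; the grey band runs from centile 10 to centile 90 (0.791 to 1.12) and the grey line marks the median (0.952) of the ratio of MDA-MB-231 replicate 2 over 18164 protein-coding loci. SMURF2 and TGFB2 lie under the band, SMAD7 lies above it, and the Hs578T lists differ from each other at several loci.

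Regions were then formed by merging the peaks of the 3 longer lists. The 10 loci held 175 such regions, of which 106 (60.6%) were called in all 3 lists, against 74.8% of all merged regions. Both Hs578T lists but not MDA-MB-231 replicate 2 called 17 regions (9.71%), against 5.51% of all merged regions. Of these, 9 were at SMURF2, 4 at TGFB2, 2 at SMAD3 and 1 each at TGFBR2 and SMAD2. MDA-MB-231 replicate 2 alone called 9 regions (5.14%), against 3.79%, spread over 7 genes with at most 2 at any. More regions, 37 (21.1%, against 11.4%), were called in 1 Hs578T list alone and so differed between the replicates of that line. Of those 37, 14 were at SMURF2 and 11 at TGFB2. A further 6 (3.43%, against 4.51%) were called in MDA-MB-231 replicate 2 and 1 Hs578T list. Regions missing from at least 1 list were weak. Fold enrichment reached at most 4.12 over all 69 of them, with a median of 2.79 and a median width of 661 bp, against 6.04 and 2841.5 bp for regions in all 3 lists. Every region with a fold enrichment above that value was thus called in all 3 lists, and the longest region called by the Hs578T lists alone, 3738 bp near the end of SMAD3, had a fold enrichment of at most 3.16.

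Overlap between lists depended on the direction in which it was counted. MDA-MB-231 replicate 2 had 143 peaks at the loci, of which 132 (92.3%) overlapped a peak of Hs578T replicate 1 and 126 (88.1%) a peak of replicate 2. In the other direction, 114 of 157 (72.6%) and 116 of 156 (74.4%) Hs578T peaks were overlapped. Over whole lists these shares were 94.2% and 91.2%, and 86.4% and 87.9% in the other direction. Between the Hs578T replicates the shares at the loci were 82.2% of replicate 1 and 89.7% of replicate 2, against 88.8% and 93.4% over whole lists. All 6 shares at the loci were below those of the whole lists, and for Hs578T peaks the shares across lines were below those within the line, a difference that was not tested. For MDA-MB-231 replicate 2 peaks this did not hold. Their share overlapped by Hs578T replicate 1 (92.3%) was above both within-line shares, and that by replicate 2 (88.1%) lay between them. The Jaccard index, bases covered in both lists over bases covered in either, was 0.715 and 0.717 across lines and 0.755 between the Hs578T replicates. Over whole lists the same 3 values were 0.77, 0.759 and 0.78.

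AP-1 motifs were counted in distal peaks, those over 2.5 kb from the canonical start site of every annotated gene. Peaks at other start sites of a gene can thus count as distal. At the 10 loci the motif was present in 58 of 109 distal peaks (53.2%, 95% Wilson interval 43.9 to 62.3) in MDA-MB-231 replicate 2, in 51 of 123 (41.5%, 33.1 to 50.3) in Hs578T replicate 1 and in 57 of 126 (45.2%, 36.8 to 53.9) in Hs578T replicate 2. Over all distal peaks the shares were 51.9%, 51.1% and 50.3%. The whole-list share lay above the interval of the loci for Hs578T replicate 1 and inside it for the other 2 lists. In the central 500 bp, a fixed length for every peak, the shares at the loci were 24.8%, 17.1% and 13.5%, against 33.7%, 32.3% and 32.1% over all distal peaks. For this window the whole-list share lay above the interval of the loci in all 3 lists (17.6 to 33.6, 11.4 to 24.7 and 8.6 to 20.5). This window is centred on the midpoint of the peak, which need not be its summit. In peaks shorter than 500 bp it extends past the peak. Per length, peaks at the loci held 0.351, 0.321 and 0.328 matches per kb, against 0.153, 0.151 and 0.152 outside them. Over whole lists these densities were 0.375, 0.365 and 0.371 in peaks and 0.151 outside. These intervals cover counting error only, and neighbouring peaks are not independent.

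By gene, SMURF2 had the motif in 12 of 23, 11 of 38 and 13 of 35 distal peaks, and SMAD3 in 9 of 21, 6 of 14 and 11 of 21. At TGFBR1 it was present in 5 of 6, 5 of 5 and 5 of 6 distal peaks. SMAD3 had the largest share of its AP-1 matches inside peaks, 29, 36 and 35 of 62. At SMAD2 only 3, 2 and 2 of 48 matches were in peaks. The SMAD3 locus was covered to 31.4%, 38.9% and 36.9%, and the SMAD2 locus to 2.17%, 2.34% and 2.68%. Per kb of peak, matches numbered 0.279, 0.28 and 0.286 at SMAD3 and 0.429, 0.266 and 0.232 at SMAD2. This density was highest at SKIL, at 0.776, 0.749 and 0.658, from only 4, 4 and 3 matches. The peak 32.1 kb upstream of SMURF2 printed above is an example with a pair of matches in 120 bases. Those bases were chosen for having the most matches among stretches of the locus in peaks of all 3 lists, away from exons and canonical start sites. Stretches chosen in the same way also held a pair at TGFB1 and TGFBR2, and a single match at each other gene.

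The SMAD palindrome occurred 14 times over the 10 loci, and 4, 4 and 5 of these were inside peaks. Peaks covered 14.7%, 18.4% and 17.1% of the length of the loci. Of distal peaks at the loci, 1.83%, 1.63% and 2.38% held the palindrome (2 of 109, 2 of 123 and 3 of 126). The shares over all distal peaks were 0.964%, 1.02% and 0.978%. Each lay inside the Wilson interval of the loci, 0.505 to 6.44, 0.447 to 5.74 and 0.813 to 6.77. At 4 places the palindrome was in a peak of all 3 lists. These were the intronic strongest peak of TGFBR2, 49.3 kb downstream of the start site, a peak of TGFB2 29.8 kb downstream with a fold enrichment of 9.14, 8.58 and 7.9, the promoter peak of SMAD7, 1.26 kb upstream of the start site, and the HNRNPUL1 promoter peak at the TGFB1 locus. The SMAD7 match was the only one in a promoter peak of the 10 genes. Of all promoter peaks, 1.18%, 1.31% and 1.21% held the palindrome. The match was inside the SMAD7 peak of the Hs578T lists as well as of MDA-MB-231 replicate 2, since it lies upstream of the part that differed. A match describes the sequence and does not show that a SMAD protein was bound.

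The wider pathway was examined through 56 further genes. Of these, 42, 40 and 38 had a promoter peak, 38 in all 3 lists and 14 in none, where 58.1%, 58.2% and 56.4% of all protein-coding genes had one and 55.6% had one in all 3 lists. Ligands were marked least often, at 3 of 8, while INHBA, BMP2, BMP7, GDF15 and NODAL had no promoter peak in any list. Of the genes that store, release or trap ligands, 7 of 13 were marked in all 3 lists, and the exceptions were LTBP2, LTBP4, LRRC32, ITGB6, GREM1 and CHRD. LTBP4, a latent TGF-β binding protein, was marked in MDA-MB-231 replicate 2 but in neither Hs578T list. Receptors were marked at 8 of 11, without ENG, ACVRL1 and ACVR1C, of which ENG and ACVRL1 are known from endothelial cells. The other SMADs were marked at 4 of 5, without SMAD9, and the other inhibitors at 6 of 7, without BAMBI, which had no peak in Hs578T replicate 2. Target genes were marked at 10 of 12. The exceptions were TGFBI and SNAI1, a transcription factor of epithelial-mesenchymal transition that was marked in MDA-MB-231 replicate 2 only. That SNAI1 peak was weak, 224 bp wide with a fold enrichment of 3.3. The SNAI1 locus was covered to 8.65%, 8.81% and 7.02% in the 3 lists.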

How the data were processed

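H3K27ac peaks of 4 ChIP-seq libraries were analysed, grouped by line and replicate from the sample titles. The submitters' processing notes name Trimmomatic, Bowtie2, MACS2 and deepTools with the build hg38, and versions are not given in the sources used here. The authors called peaks in each library against input and removed blacklisted regions. The deposited values are peak positions, a score, a fold enrichment (ratio over local background) and −log10 p and q values of single peaks. Sequencing depth is unknown, and intervals and shares cover counting error only.

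Gene positions came from GENCODE release 44. Chromosomes 1 to 22 and X were used, and peaks were assigned by overlap of at least 1 bp. Calculations used Python 3.11.15 with numpy 2.4.6, pandas 2.3.3, scipy 1.17.1 and pysam 0.24.0, and interval functions were tested on simulated data. The 10 genes, named by role, the 56 further genes (those without a peak in every longer list are named), the markers and the motifs were chosen with earlier results of these data known, and TATAAA and TGACGTCA were added after the sequences were seen. Alternatives varied start sites, windows, flanks, peak strength, merging, overlap, pairing and left-out replicates. Same-numbered libraries are not stated to share a day or culture.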

Additional observations from a re-analysis of the deposited data

How the results depend on the processing

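Of 76 recomputed values, 50 stayed within their limits (1.5 times a count, the SD of replicates or the Wilson interval) and 26 moved. Reversals were not scored. For mean coverage in MDA-MB-231 the limit was its SD of 286.3 kb, so values from 0.0 to 404.9 kb all stayed within it. Promoter counts of MDA-MB-231 replicate 1, which were 0 under every setting, also count as staying. All 10 promoters stayed marked in the 3 longer lists with all basic start sites and with a window of 2.5 kb, and with 500 bp SMAD7 was lost from Hs578T replicate 2, which left 9. With the strongest 50% of peaks 9, 10 and 9 were marked, with TGFB1 lost from MDA-MB-231 replicate 2 and Hs578T replicate 2, and with a fold enrichment of at least 5 TGFB1 was lost from Hs578T replicate 2. Without each replicate in turn the mean number of marked promoters ran from 0 to 10 in MDA-MB-231, which rests on its replicate 2. Covered bases in Hs578T and in MDA-MB-231 replicate 2 were 282.1 and 217.6 kb with flanks of 10 kb, 393.1 and 310.6 kb with 50 kb, 591.9 and 499.7 kb with 200 kb and 368.5 and 306.8 kb with the strongest 50%, and MDA-MB-231 replicate 2 was below both Hs578T lists in each. An overlap of 50% of both peaks gave 61.54% across lines and 62.82% between the Hs578T replicates, and the strongest 50% gave 95.45% and 96.92%. The strongest 50% also left 4 regions called by the Hs578T lists alone and 1 by MDA-MB-231 replicate 2 alone. Leaving out either Hs578T replicate gave 40 to 43 and 11 to 17 such regions, and requiring both MDA-MB-231 lists, chosen after seeing the data, gave 0. The AP-1 share was 24.77%, 17.07% and 13.49% in the central 500 bp, and 85.37%, 84.21% and 87.5% among the strongest 50% (41, 38 and 40 distal peaks). For the strongest 50% the share over whole lists was not computed, so these values do not show enrichment at the loci. The cause of these shifts was not tested.

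As a replicate block, the same-numbered pair alone gave a cross-line overlap of 88.11%, against 90.21% over both pairs, and the crossed pair, chosen after seeing the data, gave 92.31%. The correlation of same-numbered deviations was -0.63, in which MDA-MB-231 contributes only the gap between its near-empty list and the other. Regions of low fold enrichment can pass the threshold in a single list, and without read depth their absence from a list does not show absence of the mark.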
